A study of Mus musculus with 96 samples.

Results

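Hectd2os, Serpina4-ps1, Ang, Arrdc2, Zbtb16, Tmed6, Dnaic1, Hsd17b6, Aox3 and Ribc2 are 10 of the 18193 genes measured in these mouse livers, listed together as genes lowered at the high dose of PB. They were picked from their levels at 150 mg/kg-day against dose 0, so that contrast is described below without a test. The tests use the doses of 0.15, 1.5, 15 and 75 mg/kg-day instead, except for an alternative with dose 0 as the comparison. That alternative reuses arrays taken to have had a part in choosing the genes, so it is no independent check. Whether arrays at the other doses also had a part could not be checked. Ribc2 did not go with the name of the list: its mean at 150 mg/kg-day was within 0.20 of its mean at dose 0 on the log2 scale in each sex and day. Nor were Zbtb16 in females on day 2 (0.13) and Aox3 in females on day 7 (0.00) lower in that contrast.

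Liver total RNA of CD-1 mice was hybridised to 96 arrays. Females and males ate a diet with no PB (dose 0) or with PB at 5 doses (0.15, 1.5, 15, 75 and 150 mg/kg-day) over 2 or 7 days, which gives 24 groups of 4 arrays. CD-1 is an outbred stock, and the dose 0 groups are the untreated animals of the same stock. The study addressed how early events in liver tumour formation through the receptor CAR depend on dose. PB, left unexpanded in the labels, is the usual short form of phenobarbital in this field, and the sample titles attach ppm where the design text has mg/kg-day. The latter unit is used here, and which of them holds could not be worked out from the values. The labels also do not say whether each array is a separate mouse, so every p-value measures the spread between these samples, which may in part be technical.

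Phenobarbital-like compounds act on the liver through CAR, a nuclear receptor that switches on genes of drug metabolism, with Cyp2b10 as its textbook target. Genes lowered by such treatment are less well known than those raised. The 10 genes do not form a pathway. Hectd2os is a non-coding transcript named for lying opposite Hectd2, and Serpina4-ps1 is a pseudogene of a serine protease inhibitor. Ang encodes angiogenin, a secreted ribonuclease. Hsd17b6 and Aox3 are enzymes, a short-chain dehydrogenase of steroids and retinol and a molybdenum-containing aldehyde oxidase. Zbtb16 (PLZF) is a transcription factor that glucocorticoids induce in many tissues, Arrdc2 is an alpha-arrestin, Tmed6 belongs to the p24 receptors of the early secretory pathway, and Dnaic1 and Ribc2 are parts of motile cilia.

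Levels are log2 values, and array medians ran from 5.35 to 5.44. Cyp2b10 had a lowest, median and highest level of 6.41, 7.64 and 9.31 over the 16 arrays at dose 0 and of 10.98, 13.16 and 13.50 over the 16 arrays at 75 mg/kg-day. On a pair of arrays the level of Cyp2b10 went against the label. Replicate 1 labelled 15 mg/kg-day, male, day 2, had Cyp2b10 at 13.66, where the other 3 of its group had 11.07 to 11.29. Replicate 1 labelled 75 mg/kg-day, male, day 2, had Cyp2b10 at 10.98, where the other 3 had 13.19 to 13.36. Both were kept in the fit, and several results that they move are also given without them. Hepatocyte markers averaged 13.99 to 14.11 per array at the low doses, so the livers carried the transcripts their label names.

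Stretches upstream of the start site are shown for 4 of the genes whose results are described at length below. They are from RefSeq on the assembly GRCm38.p6, end before the gene's annotated start, and read 5′ to 3′ on the strand of the gene. Capitals mark CCAAT, a promoter box, or its reverse complement.
Hectd2os (chr19:36689480-36689729, - strand): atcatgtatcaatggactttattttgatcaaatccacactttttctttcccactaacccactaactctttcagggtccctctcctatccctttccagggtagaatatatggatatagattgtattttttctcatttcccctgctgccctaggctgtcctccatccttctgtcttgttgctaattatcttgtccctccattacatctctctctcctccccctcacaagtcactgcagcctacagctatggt
Ang (chr14:51090827-51091076, + strand): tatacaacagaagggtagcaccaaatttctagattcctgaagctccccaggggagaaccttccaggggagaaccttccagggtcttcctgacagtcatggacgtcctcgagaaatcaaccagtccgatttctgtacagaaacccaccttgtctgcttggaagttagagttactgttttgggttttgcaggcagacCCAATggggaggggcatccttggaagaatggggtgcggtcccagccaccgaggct
Hsd17b6 (chr10:128007649-128007861, - strand): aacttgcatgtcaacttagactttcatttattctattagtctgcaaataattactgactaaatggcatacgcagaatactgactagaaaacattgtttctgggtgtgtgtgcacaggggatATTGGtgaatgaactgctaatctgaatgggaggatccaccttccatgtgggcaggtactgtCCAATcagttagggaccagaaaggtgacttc
Aox3 (chr1:58112886-58113134, + strand): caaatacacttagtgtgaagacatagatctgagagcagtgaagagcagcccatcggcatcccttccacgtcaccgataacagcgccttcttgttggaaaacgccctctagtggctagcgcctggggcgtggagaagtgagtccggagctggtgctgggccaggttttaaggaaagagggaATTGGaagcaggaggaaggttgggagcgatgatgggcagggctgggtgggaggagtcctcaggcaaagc
The stretch of Ang is also that of Rnase4, which has the same annotated start. A start site was matched by symbol for 8 of the 10 genes. The motifs searched on both strands of the 250 bases before each start were TGTTCT (part of the glucocorticoid receptor site), AGGTCA (a core of nuclear receptor sites), TATAAA (the core promoter box of that name), the same box CCAAT as above, and GTTGCC (part of the site of RFX factors of cilium genes). None of these contains another. CCAAT was in the window of 4 of the 8 genes (Ang, Aox3, Arrdc2 and Hsd17b6) and in 33.8% of all 32851 windows. TGTTCT was found for Tmed6 alone of the 8 and in 16.1% of all windows. AGGTCA and GTTGCC were found for Ribc2 alone of the 8, against 14.0% and 10.4% of all windows. TATAAA was in none of the 8 and in 12.4% of all windows. No motif was held by more than 4 of the 8 genes.

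The first question was whether the genes were already lower at 75 mg/kg-day. Whether the arrays compared had a part in choosing the genes could not be checked. The calls are therefore not taken as independent of that choice. The 16 arrays at 75 mg/kg-day were compared with the 32 arrays at 0.15 and 1.5 mg/kg-day, called the low doses here, with equal weight on each sex and day. A gene is called where limma's Benjamini-Hochberg adjusted p over all 18193 genes is below 0.05. Hectd2os, Serpina4-ps1, Ang, Dnaic1 and Hsd17b6 fell, 5 of the 10 genes, and none rose. Over all genes 3.66% were called lower and 5.72% higher. The estimate was below 0 for 9 of the 10 genes, with a median log2 difference of -0.41, against -0.01 over all genes. Zbtb16, Aox3, Arrdc2, Tmed6 and Ribc2 were not called. In whole liver, fewer cells of a type and less RNA per cell cannot be told apart.

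**Figure D1:**
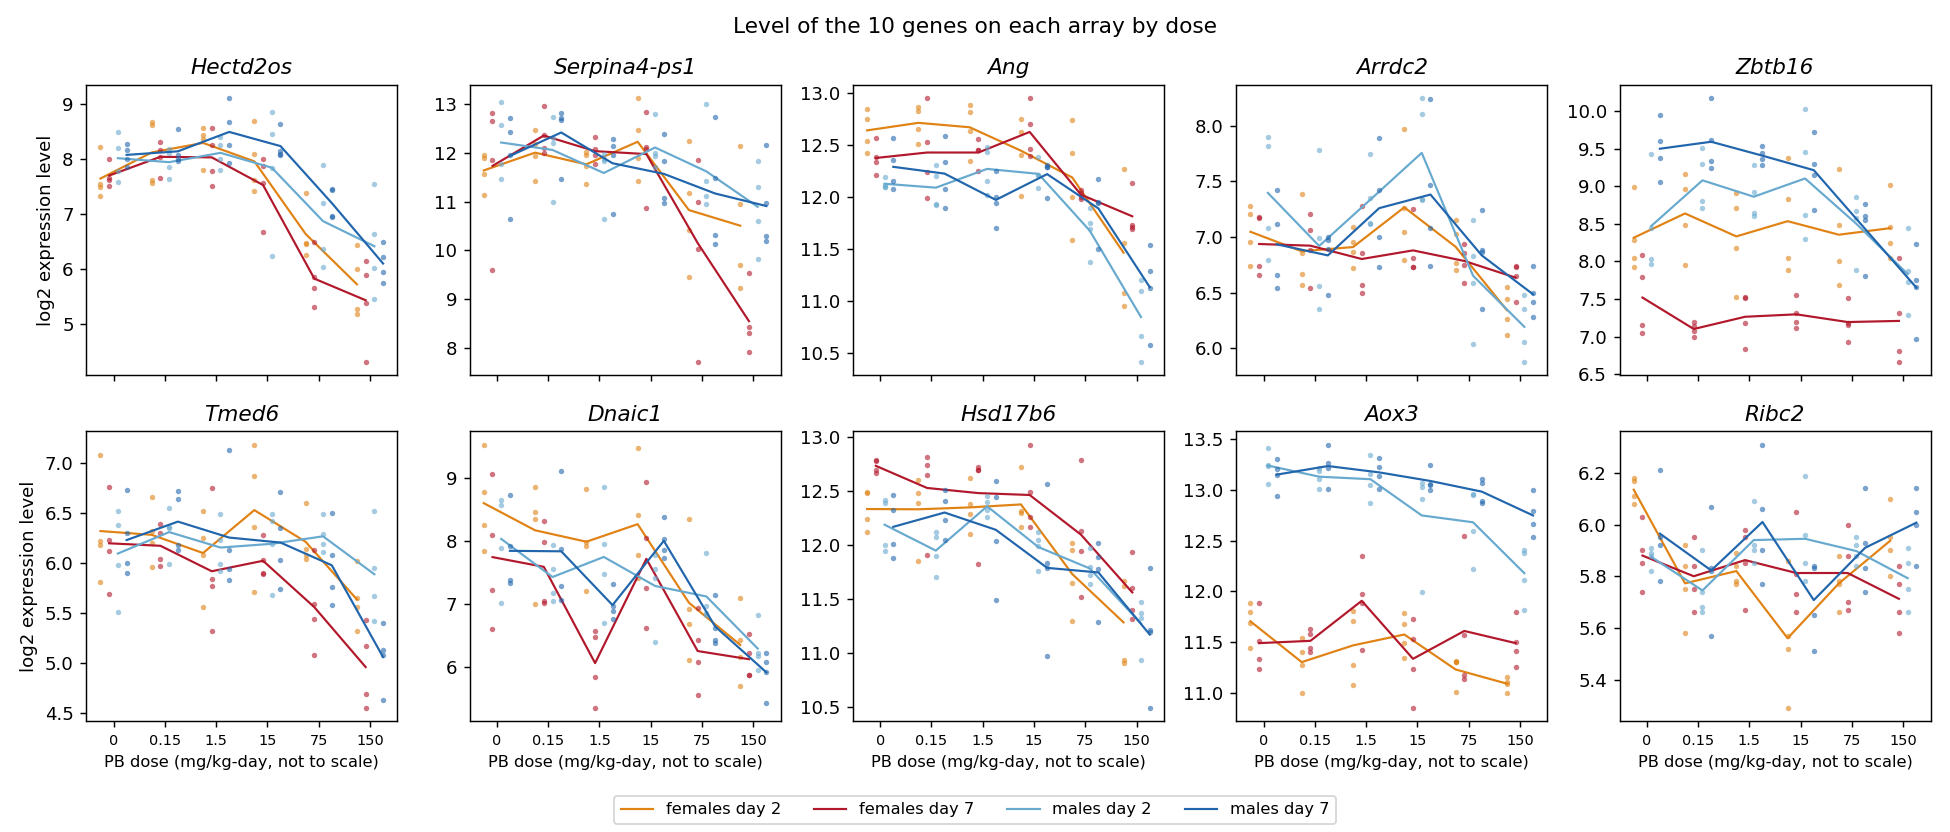
Log2 level of each of the 10 genes on all 96 arrays (points) against PB dose in mg/kg-day (ordered, not to scale), with a line through the mean of 4 arrays for each sex and day. The mean levels of Hectd2os, Ang, Dnaic1 and Hsd17b6 lie lowest at 75 and 150 mg/kg-day on all 4 lines of sex and day, apart from Dnaic1 at 1.5 mg/kg-day in females on day 7, and Ribc2 stays between 5.29 and 6.31 throughout.

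Hectd2os had the largest difference of the 10 genes at 75 mg/kg-day over sexes and days. Over all sexes and days its lowest, median and highest level was 7.32, 7.81 and 8.49 at dose 0, 7.56, 8.05 and 8.67 at 0.15, and 7.50, 8.25 and 9.10 at 1.5 mg/kg-day (16 arrays each). It was 6.23, 8.02 and 8.84 at 15, 5.30, 6.47 and 7.88 at 75, and 4.31, 5.97 and 7.54 at 150 mg/kg-day (16 arrays each). The 6.23 at 15 mg/kg-day was replicate 1 of the males on day 2, an array whose Cyp2b10 went against its label. The first 3 doses overlapped almost fully, and 75 and 150 mg/kg-day lay below them with few arrays in common. In females the 4 arrays at 75 mg/kg-day read 6.45, 7.37, 6.46 and 6.24 on day 2 and 5.65, 5.84, 5.30 and 6.48 on day 7, and the lowest of the 8 low-dose arrays was 7.56 and 7.50 on those days. In males they read 7.88, 6.35, 6.03 and 7.19 on day 2, where the low doses began at 7.63, and 7.44, 6.94, 6.96 and 7.43 on day 7, where the low doses began at 7.92. The arrays at 75 mg/kg-day therefore lay below all low-dose arrays in 3 of the 4 sets of sex and day. The exception was males on day 2, through replicate 1, the array whose Cyp2b10 went against its label.

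Hectd2os was 2.86-fold lower at 75 mg/kg-day than at the low doses over sexes and days (log2 difference -1.51, 95% confidence interval -1.83 to -1.20, limma adjusted p = 1.32e-11). Without the 2 doubted male arrays the log2 difference was -1.60 (adjusted p = 3.66e-14). Within a sex and day it was -1.57 in females on day 2 (limma adjusted p = 0.00173), -2.21 in females on day 7 (3.00e-06), -1.16 in males on day 2 (0.0867) and -1.12 in males on day 7 (0.128). The first 2 of these fell, and both male differences missed the threshold in the fit of all arrays. With dose 0 as the comparison the difference in females on day 2 was -1.01 (adjusted p = 0.277), which ended that call. Without the 2 doubted arrays the male differences were -1.50 on day 2 (adjusted p = 0.00355) and -1.12 on day 7 (adjusted p = 0.0494), and both were called. Neither doubted array is of day 7, so the day 7 difference itself was unchanged and only its adjusted p moved. Leaving out only replicate 1 of the 75 mg/kg-day males on day 2 also gave -1.50 (adjusted p = 0.0116). The female and male changes were not shown to differ: the change was 0.75 less negative in males (interval 0.11 to 1.39, adjusted p = 0.915). In the contrast that chose the gene, 150 against 0 mg/kg-day, Hectd2os differed by -1.92 and -2.26 in females on days 2 and 7 and by -1.60 and -1.98 in males.

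Hectd2, the ubiquitin ligase gene whose annotated span overlaps Hectd2os, also fell at 75 mg/kg-day, from a mean level of 4.25 to 3.65 (log2 difference -0.60, limma adjusted p = 6.31e-06). These levels are near the lower quartile of the arrays (3.91 to 4.09), the range of dim probe sets. The correlation of Hectd2 with Hectd2os was 0.96 over the 24 group means and 0.54 over the 96 arrays once group means were removed. The shared groups enter the first, and the part of the shared locus in either was not tested. Correlations over the group means, here and below, also include the groups whose contrast chose the genes. On the other side, Ppp1r3c, which targets phosphatase to glycogen, fell by 0.68 (adjusted p = 0.00222), with a correlation within groups of 0.05. Among 9088 genes with a mean level above the median gene, those most like Hectd2os over the group means were Ccdc107 (r = 0.91), F11 (0.91), the clotting factor, and Cxxc5 (0.90). Within groups these correlations were 0.15, 0.47 and 0.35.

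Serpina4-ps1 had wide spread among arrays of a group. Its lowest, median and highest level over 16 arrays was 9.60, 11.93 and 13.05 at dose 0, 10.99, 12.25 and 12.95 at 0.15, 10.64, 11.95 and 12.33 at 1.5, 7.72, 11.06 and 12.99 at 75, and 7.92, 10.25 and 12.16 at 150 mg/kg-day. In females at 75 mg/kg-day the arrays read 9.46, 11.18, 12.24 and 10.42 on day 2, against 11.35 to 12.47 over the low doses, and 10.02, 11.00, 7.72 and 11.86 on day 7, against 11.76 to 12.95. In males they read 12.99, 10.94, 11.43 and 11.11 on day 2, against 10.64 to 12.74, and 11.48, 10.12, 12.74 and 10.32 on day 7, against 10.75 to 12.82. In each set the highest array at 75 mg/kg-day lay above the lowest low-dose array, and the highest in males on day 2 was again the doubted replicate 1.

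Serpina4-ps1 was 2.08-fold lower at 75 mg/kg-day over sexes and days (log2 difference -1.06, interval -1.58 to -0.54, limma adjusted p = 0.00394), and without the doubted arrays the difference was -1.17 (0.00151). The call ended with 1.5 mg/kg-day alone as the comparison (-0.85, adjusted p = 0.0679). In females on day 7 it fell by 2.04 (adjusted p = 0.0449). That call rested on replicate 3 at 75 mg/kg-day: without it the difference was -1.23 (adjusted p = 0.919). Leaving out replicate 1 at 75 mg/kg-day, or any of the 8 low-dose arrays of that set, also ended the call, with adjusted p from 0.0502 to 0.107, and 7 of 23 alternatives kept it. At 150 against 0 mg/kg-day the differences were -1.13 and -3.19 in females on days 2 and 7 and -1.32 and -1.03 in males, with all 3 probe sets of the gene between -2.92 and -3.26 in females on day 7. In that group the 4 arrays at 150 mg/kg-day read 8.31, 8.43, 7.92 and 9.53, and the 4 at dose 0 read 12.65, 11.85, 9.60 and 12.82. The lowest array at dose 0 lay next to the highest at 150 mg/kg-day. Serpina4-ps1 may share sequence with the other Serpina genes of its cluster, so its probe sets are not certain to read it alone. Its measured neighbours, Serpina12 and Serpina5, had differences of -0.45 (adjusted p = 0.310) and -0.14 (0.304).

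Ang, angiogenin, had arrays that spread by a standard deviation of 0.50 in females on day 2 at 75 mg/kg-day and of 0.04 in females on day 7. At 75 mg/kg-day its arrays read 12.74, 12.00, 12.42 and 11.59 in females on day 2 (low doses 12.35 to 12.88), 11.98, 12.04, 12.07 and 12.00 in females on day 7 (11.99 to 12.95), 11.89, 11.69, 11.75 and 11.38 in males on day 2 (11.92 to 12.48), and 11.50, 11.95, 12.17 and 11.94 in males on day 7 (11.70 to 12.59). All 4 arrays lay below all 8 low-dose arrays in males on day 2, and the sets overlapped elsewhere. Over sexes and days Ang was 1.32-fold lower (log2 difference -0.41, interval -0.57 to -0.24, limma adjusted p = 0.000441). It was called over sexes and days under all 59 alternatives run. These include dose 0 as the comparison, whose arrays had a part in choosing the genes. None of the 4 sets alone passed the threshold, with differences of -0.51, -0.40, -0.50 and -0.21 in the same order. Without female day 2 replicate 1 at 75 mg/kg-day, the highest of its group, Ang was called in females on day 2 as well (-0.69, adjusted p = 0.0315). The high dose against dose 0 gave -1.18, -0.56, -1.28 and -1.16, and the male arrays at 150 mg/kg-day on day 2 read 10.42, 10.67, 11.10 and 11.20. The 3 probe sets of Ang agreed within 0.05 at 75 mg/kg-day (-0.38 to -0.42). Mouse Ang has close paralogs, of which Ang2 fell by 0.28 from a dim level of 4.77, and reads of paralogs on these probe sets cannot be told apart.

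Rnase4, a second secreted ribonuclease with the same annotated start as Ang, fell as well at 75 mg/kg-day. Its lowest, median and highest level was 13.51, 13.83 and 14.04 at 1.5, 13.39, 13.64 and 13.87 at 75, and 12.74, 13.35 and 13.88 at 150 mg/kg-day. The log2 difference at 75 mg/kg-day against the low doses was -0.15 (limma adjusted p = 0.0127), smaller than that of Ang. Of the 9088 genes searched, Rnase4 was the most like Ang over the 24 group means (r = 0.98), followed by Rdh9 (0.93), a retinol dehydrogenase, and Scarb1 (0.93), the receptor for high-density lipoprotein. Within groups the correlation of Ang with Rnase4 was 0.81 over the 96 arrays, against 0.37 for Rdh9 and 0.35 for Scarb1.

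**Figure D2:**
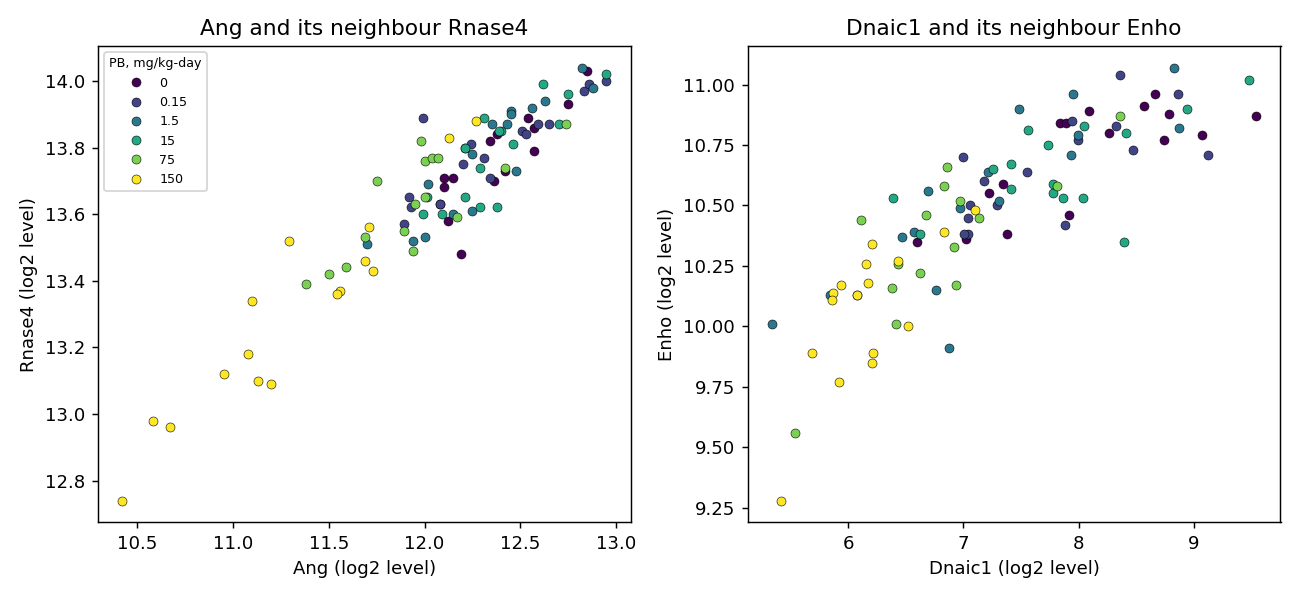
Log2 levels on the 96 arrays of Ang against Rnase4, which has the same annotated start (left), and of Dnaic1 against Enho, which overlaps its end (right), with each point an array shaded by PB dose in mg/kg-day. In both panels the arrays run along a rising band, with within-group correlations of 0.81 and 0.69, and most arrays at 150 mg/kg-day are at its lower end.

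Dnaic1, a dynein chain of motile cilia, varied at the low doses too. Over 16 arrays its lowest, median and highest level was 6.60, 8.0 and 9.54 at dose 0, 7.00, 7.71 and 9.12 at 0.15, 5.34, 7.09 and 8.87 at 1.5, 5.54, 6.76 and 8.36 at 75, and 5.42, 6.16 and 7.10 at 150 mg/kg-day. The lowest array at 1.5 mg/kg-day was as low as any at 150. On day 7 at 1.5 mg/kg-day the female arrays read 5.84, 5.34, 6.57 and 6.47, below the 6.62 to 8.94 of females at 15 mg/kg-day, and the male arrays read 6.76, 6.88, 7.31 and 6.97. The order of doses was therefore not kept for Dnaic1 on day 7. At 75 mg/kg-day the arrays read 6.92, 6.68, 8.36 and 6.11 in females on day 2, 6.08, 6.43, 5.54 and 6.94 in females on day 7, 6.86, 6.97, 7.81 and 6.83 in males on day 2, and 7.14, 6.42, 6.62 and 6.38 in males on day 7. Each set overlapped the low doses.

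Over sexes and days Dnaic1 was 1.65-fold lower at 75 mg/kg-day than at the low doses (log2 difference -0.72, interval -1.12 to -0.32, limma adjusted p = 0.0127). Without the doubted male arrays it stayed called (-0.70, limma adjusted p = 0.0195). With 1.5 mg/kg-day alone as the comparison the call ended (-0.44, adjusted p = 0.266). None of the sets of sex and day was called alone, at -1.06, -0.58, -0.47 and -0.77 for females on days 2 and 7 and males on days 2 and 7. Dnaic1 differed by -2.26, -1.63, -1.75 and -1.94 at 150 against 0 mg/kg-day, and both probe sets gave nearly the same values. Enho, which encodes the liver peptide adropin and overlaps the end of Dnaic1 in the annotation, fell by 0.25 at 75 mg/kg-day (adjusted p = 0.00349). Enho was also the gene most like Dnaic1 over the group means (r = 0.91) and had a within-group correlation of 0.69 with it. Whether the probe sets of Dnaic1 read that gene alone, given the overlap, was not tested. Fam210b and Avpr1a followed at 0.89 and 0.89 over the group means, and at 0.37 and 0.28 within groups.

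Hsd17b6, a dehydrogenase of androgen metabolites, was high in these livers. Its lowest, median and highest level was 11.88, 12.41 and 12.79 at dose 0, 11.70, 12.31 and 12.81 at 0.15, 11.49, 12.39 and 12.72 at 1.5, 11.29, 11.85 and 12.79 at 75, and 10.49, 11.35 and 11.93 at 150 mg/kg-day. Its arrays at 75 mg/kg-day read 11.65, 12.02, 11.95 and 11.30 in females on day 2, 11.52, 12.79, 11.94 and 12.13 in females on day 7, 11.80, 11.64, 11.72 and 11.97 in males on day 2, and 12.02, 11.29, 11.78 and 11.89 in males on day 7. Every set overlapped the low doses, and every set had a mean below them. Over sexes and days Hsd17b6 was 1.38-fold lower (log2 difference -0.47, interval -0.67 to -0.27, limma adjusted p = 0.000745). It was called under all 59 alternatives run, dose 0 as the comparison among them. The 4 sets gave -0.61, -0.41, -0.37 and -0.48, none of them past the threshold alone. Hsd17b6 differed by -1.05, -1.17, -0.91 and -1.0 at 150 against 0 mg/kg-day.

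The second probe set of Hsd17b6 did not move with the one used. It had a mean level of 5.56, against 12.05, and differed by -0.05 at 75 mg/kg-day and by 0.04 to 0.19 at 150 against 0. Next to Hsd17b6 on the chromosome, the dehydrogenase gene Sdr9c7 fell by 0.36 (adjusted p = 8.98e-07), with a within-group correlation of 0.14, and Prim1 on the other side had a difference of 0.20 (0.0882). Igf1, the liver growth factor, was the most like Hsd17b6 over the group means (r = 0.95), then Apoc4 (0.92) and Slc17a2 (0.91). Within groups these correlations were lower, at 0.24, 0.13 and 0.38.

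**Figure D3:**
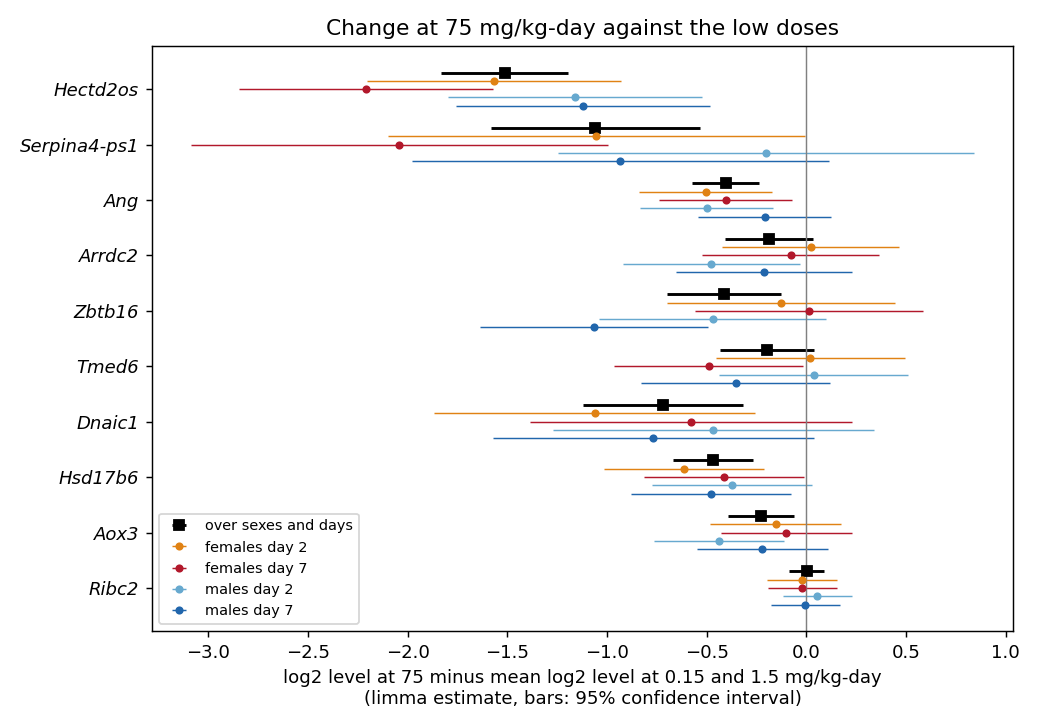
Log2 difference between 75 mg/kg-day and the mean of the 2 low doses for each of the 10 genes (rows), as limma estimates with 95% confidence intervals, over sexes and days (black squares) and within each sex and day (coloured points). The intervals over sexes and days lie below 0 for 7 genes, of which Zbtb16 and Aox3 did not pass the adjusted threshold, and that of Ribc2 lies on both sides of 0.

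Zbtb16 was not called at 75 mg/kg-day over sexes and days (log2 difference -0.41, interval -0.70 to -0.13, limma adjusted p = 0.0536), and 14 of 59 alternatives called it. Without the doubted male arrays the difference was smaller (-0.36, limma adjusted p = 0.101). Levels of Zbtb16 depended on sex and day. In males on day 7 the arrays read 9.95, 9.60, 9.06 and 9.38 at dose 0, 9.24 to 10.17 over the low doses, 8.55, 8.61, 7.81 and 8.76 at 75, and 8.23, 7.66, 7.75 and 6.97 at 150 mg/kg-day. All arrays at 75 and 150 mg/kg-day of that set lay below all arrays at the low doses and at dose 0. The difference at 75 mg/kg-day was -1.07 there (interval -1.64 to -0.50, adjusted p = 0.0832), and it passed the threshold with array weights (-1.13, adjusted p = 0.0315). In females on day 7 the arrays at 75 mg/kg-day read 7.18, 6.93, 7.15 and 7.52 and the low doses 6.84 to 7.53, with a difference of 0.01 (-0.56 to 0.58). On day 2 the difference was -0.13 in females and -0.47 in males, or -0.27 in males without the doubted arrays. The male change was 0.71 more negative than the female (interval -1.28 to -0.14), with an adjusted p of 0.885 over all genes. Zbtb16 at 150 against 0 mg/kg-day differed by 0.13 and -0.31 in females and by -0.64 and -1.84 in males on days 2 and 7.

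Aox3 was not called at 75 mg/kg-day over sexes and days (log2 difference -0.23, interval -0.39 to -0.06, limma adjusted p = 0.0654). Without the doubted male arrays it was (-0.25, adjusted p = 0.0294), and without replicate 4 of the 75 mg/kg-day females on day 7 it was -0.31 (0.00374). In all, 7 of 59 alternatives called it, with adjusted p from 0.00374 to 0.364. In that female group the arrays read 11.18, 11.57, 11.14 and 12.55. In males on day 2 Aox3 read 12.95, 12.60, 12.22 and 12.96 at 75 mg/kg-day against 12.87 to 13.35 over the low doses, a difference of -0.44 (interval -0.77 to -0.11, adjusted p = 0.359). The other sets gave -0.15 and -0.10 in females and -0.22 in males on day 7. Among the day 2 males at 15 mg/kg-day replicate 1 read 11.99 and the other 3 read 12.91, 13.07 and 13.03. At 150 mg/kg-day the male arrays of day 2 read 12.38, 12.41, 11.82 and 12.11, all below the dose 0 arrays at 13.06, 13.25, 13.24 and 13.42. At 150 against 0 mg/kg-day the differences were -0.61 and 0.00 in females and -1.07 and -0.40 in males. Aox1, the neighbouring aldehyde oxidase gene, rose by 0.41 at 75 mg/kg-day (limma adjusted p = 0.00382), and Aox4 on the other side was at a dim 3.19 against 3.21.

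Arrdc2, Tmed6 and Ribc2 were not called at 75 mg/kg-day, and none of the 59 alternatives called any of them. Arrdc2 had a lowest, median and highest level of 6.54, 7.10 and 7.90 at dose 0, 6.04, 6.84 and 7.24 at 75, and 5.88, 6.43 and 6.74 at 150 mg/kg-day, and differed by -0.19 at 75 mg/kg-day (interval -0.41 to 0.04, limma adjusted p = 0.322). Its highest arrays were at 15 mg/kg-day, where the males of day 2 read 7.33, 8.11, 8.25 and 7.34. Tmed6 had 5.51, 6.20 and 7.08 at dose 0, 5.08, 6.10 and 6.60 at 75, and 4.55, 5.41 and 6.52 at 150 mg/kg-day, with a difference at 75 mg/kg-day of -0.20 (-0.43 to 0.04, adjusted p = 0.330). Arrdc2 at the high dose against dose 0 differed by -0.70, -0.30, -1.21 and -0.45 and Tmed6 by -0.68, -1.24, -0.21 and -1.17, in the order of females on days 2 and 7 and males on days 2 and 7. The larger differences were on day 2 for Arrdc2 and on day 7 for Tmed6.

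Ribc2 had the narrowest range of the 10 genes. Its lowest, median and highest level was 5.74, 5.91 and 6.21 at dose 0, 5.66, 5.86 and 6.14 at 75, and 5.58, 5.85 and 6.14 at 150 mg/kg-day, and its difference at 75 mg/kg-day was 0.00 (interval -0.09 to 0.09, limma adjusted p = 0.987). At 150 against 0 mg/kg-day it differed by -0.19, -0.17, -0.08 and 0.04. Its lowest array was 1 of the females on day 2 at 15 mg/kg-day (5.52, 5.29, 5.57 and 5.86), and the dose 0 arrays of the same sex and day read 6.08, 6.17, 6.11 and 6.18. The lowest mean of the 6 doses was at 15 mg/kg-day in females on day 2 (5.56) and males on day 7 (5.71), at 0.15 in males on day 2 (5.75) and at 150 mg/kg-day in females on day 7 (5.71). Of the 9088 genes searched, the best likeness to Ribc2 over the group means was 0.64.

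Within single sets of sex and day, few of the 10 genes were called at 75 mg/kg-day. In females on day 2 it was Hectd2os, 1 of the 10, where 0.665% of all genes were called lower. In females on day 7 it was Hectd2os and Serpina4-ps1, 2 of the 10, against 0.231%. In males none was called by limma on day 2 (0.0495% of all genes) or on day 7 (0.0165%), with 4 and 3 of the 10 genes lower at an unadjusted p below 0.05, where 3.75% and 3.47% of all genes were. In each set the arrays at 75 mg/kg-day lay wholly below the low doses for 1 or 2 of the 10 genes. These were Hectd2os in females on day 2 (0.852% of all genes did so) and on day 7 (0.588%), Ang in males on day 2 (0.275%), and Hectd2os and Zbtb16 in males on day 7 (0.313%). No gene of the 10 had a change at 75 mg/kg-day that differed between the sexes (0.0165% of all genes) or between the days (0 of all genes) by limma. At an unadjusted p below 0.05, 2 of the 10 (Hectd2os and Zbtb16) differed between the sexes and 0 between the days, against 5.06% and 4.02% of all genes. In the contrast that chose the genes, 150 against 0 mg/kg-day, 2.14%, 0.923%, 2.4% and 0.835% of all genes were called lower in females on days 2 and 7 and males on days 2 and 7.

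At 15 mg/kg-day none of the 10 genes was called against the low doses, over sexes and days or in any set. Limma called 0 of all genes lower and 0.077% higher over sexes and days. At an unadjusted p below 0.05 it found 6.12% of all genes in either direction and 3 of the 10: Arrdc2 at a log2 difference of 0.34, Aox3 at -0.17 and Ribc2 at -0.09. Hectd2os, the gene with the largest fall at 75, had a difference of -0.26 at 15 mg/kg-day (interval -0.58 to 0.06), and of -0.12 without the doubted male arrays. Dnaic1 had 0.34 (-0.06 to 0.75) and Ang 0.03 (-0.14 to 0.20). Within females on day 2, females on day 7, males on day 2 and males on day 7, where 0.0275%, 0.011%, 0.044% and 0.022% of all genes were called in either direction, none of the 10 was. At an unadjusted p below 0.05 these sets held 1, 2, 2 and 2 of the 10 genes and 6.77%, 3.1%, 4.41% and 4.45% of all genes.

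The low-dose arrays also gave the levels of the 10 genes by sex and day, 8 arrays in each set. Aox3 was higher in males, with levels of 11.00 to 12.35 over the 16 female arrays and 12.87 to 13.45 over the 16 male arrays. The sexes did not overlap, and the male mean was 3.06-fold higher (log2 difference 1.62, interval 1.43 to 1.81, limma adjusted p = 1.42e-24). Zbtb16 was higher in males by 1.40 (interval 1.07 to 1.73, adjusted p = 1.54e-10), and Ang was lower in males by 0.42 (adjusted p = 0.00061). The probe sets of Zbtb16 that were not used were higher in males by 1.52 and 0.51. The share of all genes called was 12.8% lower and 8.5% higher in males, and of the 10 genes 1 was lower and 2 were higher. The other 7 genes had adjusted p of 0.151 (Hsd17b6, -0.24) or more. Over the group means, the genes most like Aox3 were Ttc39c (r = 0.98), Ugt2b38 (0.96), a glucuronosyltransferase, and Keg1 (0.96). Within groups these correlations were 0.53, 0.51 and 0.39.

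The sex difference of Zbtb16 was not the same on both days. On day 2 the low-dose levels were 7.53, 8.59 and 9.16 (lowest, median and highest) in females and 8.60, 8.86 and 9.51 in males, which overlapped. On day 7 they were 6.84, 7.16 and 7.53 in females and 9.24, 9.40 and 10.17 in males, with a wide gap between. The change from day 2 to day 7 was 1.83 higher in males than in females (interval 1.17 to 2.49, limma adjusted p = 0.00163), and the adjusted p ran from 0.000214 to 0.00229 over 8 alternatives. This comparison was added after the data were seen. Of all genes, 0.214% were called higher and 0.187% lower in it, and of the 10 genes Zbtb16 was the 1 called. The females of day 7 stayed low at the other doses too, with 7.05 to 8.08 at dose 0 and 7.12 to 7.55 at 15 mg/kg-day. Averaged over the sexes, none of the 10 genes was called between day 7 and day 2 by limma (0.605% of all genes lower, 0.319% higher), and 3 of the 10 had an unadjusted p below 0.05, as had 10.5% of all genes. The largest of these was Dnaic1, at -0.72 (adjusted p = 0.133).

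**Figure D4:**
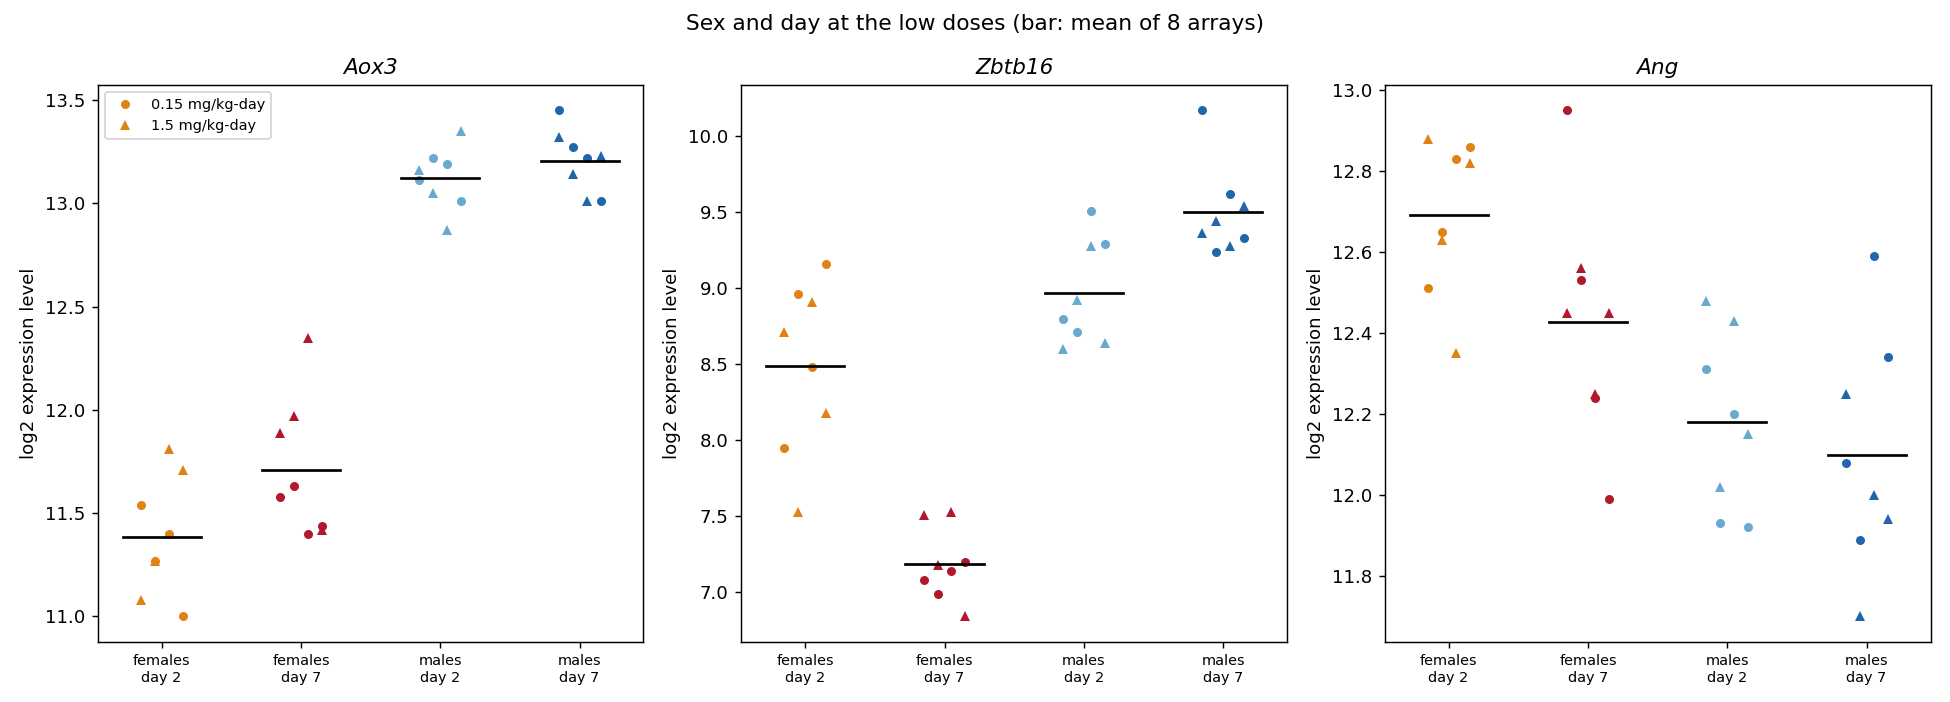
Log2 levels of Aox3, Zbtb16 and Ang at the low doses in each sex and day, with each point an array (circles 0.15, triangles 1.5 mg/kg-day) and bars the means of 8 arrays. Male Aox3 lies at or above 12.87 and female Aox3 at or below 12.35, Zbtb16 of females on day 7 lies at or below 7.53, and Ang of females and males overlaps.

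The 10 genes moved apart from each other once dose, sex and day were taken out. Within groups, the correlation over the 96 arrays for the 45 pairs of them ran from -0.26 to 0.42, with a median of 0.07, and 34 pairs lay within 0.2 of zero. The highest was Serpina4-ps1 with Dnaic1 (0.42), followed by Hectd2os with Aox3 (0.34). Over the 24 group means, which share the doses, the median was 0.50 and the highest 0.87. These means include the groups whose contrast chose the genes. Positive values over them are therefore in part built in by that choice, and no likeness between the genes is concluded from them.

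Genes of the families and pathways of the 10, from lists that leave them out, showed no single direction at 75 mg/kg-day. Of all genes, 3.66% fell and 5.72% rose in the same comparison. Of 29 short-chain and related steroid and retinol dehydrogenases, the family of Hsd17b6, 6 fell and 2 rose. Rdh9 fell by 0.86 (limma adjusted p = 5.64e-08), Hsd3b2 by 0.68 and Rdh7 by 0.09, and Hsd17b2 rose by 0.29. Of 11 molybdenum enzymes and cofactor genes, the group of Aox3, 2 rose (Mocos by 0.23 and Aox1 by 0.41) and 2 fell (Mtarc2 by 0.15 and Suox by 0.17). Of 24 glucocorticoid-induced genes, listed because of Zbtb16, 5 fell and none rose, with a list median of -0.12. They were Tdo2, which opens the tryptophan ring (-0.13), G6pc, which releases glucose (-0.45), Errfi1 (-0.21), Hsd11b1, which regenerates glucocorticoid (-0.07), and Klf9 (-0.25).

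Of 12 other Serpina genes, Serpina9 fell by 0.61 and Serpina11 by 0.19, and Serpina6, the carrier of corticosteroids, rose by 0.39. Of 10 genes of the ribonuclease A family, Ang2 and Rnase4 fell and none rose. Of 16 arrestins and partners, the family of Arrdc2, the ubiquitin ligase Nedd4 and its adaptor Ndfip1 fell, each by 0.12. Of 9 p24 receptors, the family of Tmed6, Tmed10 rose by 0.15 and Tmed3 by 0.32. Of 25 BTB zinc finger factors, the family of Zbtb16, Zbtb43 fell by 0.13. Of 40 genes of motile cilia, Ribc1 fell by 0.14 and Dnah1 rose by 0.16. At 15 mg/kg-day no gene of any of these lists was called, where 0 of all genes were called lower and 0.077% higher. Of 20 measured neighbours of the 10 genes, 6 fell at 75 mg/kg-day (Hectd2, Ppp1r3c, Rnase4, Enho, Sdr9c7 and Il12rb1) and 1 rose (Aox1). Over all genes 3.66% fell and 5.72% rose at 75 mg/kg-day, the shares to set beside each of these counts.

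Of 11 Kupffer cell markers, 8 rose at 75 mg/kg-day and none fell, with a list median of 0.33. The shares of all genes were 5.72% higher and 3.66% lower. Their mean level per array ran from 8.68 to 10.33 at the low doses and from 9.03 to 10.96 at 75 mg/kg-day. Of 10 hepatocyte markers, Apoh and Apob fell, each by 0.07, and the mean ran from 13.91 to 14.06 at 75 mg/kg-day. Lyve1 rose among 11 endothelial markers (0.45), Acta2 among 10 stellate cell markers (0.32) and S100a8 among 8 neutrophil markers (1.18). None of 7 cholangiocyte, 9 lymphocyte and 6 erythroid markers was called. These marker genes and Klf9 and Il12rb1 were named after their values were seen. The part of a changed mix of cells in the falls of Hectd2os, Serpina4-ps1, Ang, Dnaic1 and Hsd17b6 was not tested.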

How the data were processed

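The deposited values are log2 expression levels, 1 array per sample, which the authors had normalized before deposit. How they did so: not given in the sources used here. Per the labels' protocols, liver RNA was extracted with Trizol and biotin-labelled with an Enzo kit. Of 45101 probe sets, 64 were controls, 34945 had 1 gene symbol, 932 several and 9160 none. A gene took the values of its brightest probe set, by the mean of the 96 arrays (18193 genes, 9010 with more than 1 probe set). The 10 genes have 18 probe sets. A mean for each of the 24 groups was fitted to the 96 arrays with limma 3.58.1 (R 4.3.3, the package data.table in version 1.17.8), with 72 residual and 4.39 prior degrees of freedom, two-sided tests and Benjamini-Hochberg adjustment over all genes. "Rose" and "fell" are used below an adjusted p of 0.05. The precision is limited by the number of arrays, which give no counts. The highest correlation between arrays was 0.996, so no array was counted as a copy. The procedure was tested on simulated data, and the outcome of that test is not reported here. RefSeq's gene list placed 18145 genes, and coordinates are given only for the promoters, since the sources used here give no build for the values. Figures were drawn with matplotlib 3.10.9.

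The genes named are the 10, their measured neighbours, up to 4 genes of each list by p, the 3 genes most like each of the 10 and Cyp2b10. The 10 genes and all lists were chosen with earlier results of these data known. Alternatives were another choice of probe set, a filter on dim genes, other scalings, a replicate block, a trend, array weights, other comparison doses and leaving out each array. Leaving out the 2 doubted arrays, the left-out arrays over sexes and days, and the sex by day comparison were chosen after the data were seen.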

Additional observations from a re-analysis of the deposited data

Results flagged for a closer look

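Of 240 groups of 4 arrays examined (10 genes in 24 groups), 10 held an array far from the other 3, where chance gives about 1 in 20. Hectd2os in the day 7 males at 15 mg/kg-day had replicate 4 at 8.63, above 8.06 to 8.13. Serpina4-ps1 in males had replicate 4 at 11.46 at 0.15 mg/kg-day on day 7, below 12.67 to 12.82, and replicate 3 at 10.64 at 1.5 mg/kg-day on day 2, below 11.84 to 11.98. Ang had replicate 3 of the females of day 7 at 150 mg/kg-day at 12.13, above 11.69 to 11.73, and replicate 3 of the males of day 7 at 15 mg/kg-day at 11.99, below 12.29 to 12.31. Arrdc2 in females on day 7 at 15 mg/kg-day had replicate 4 at 7.25, above 6.73 to 6.81. Dnaic1 in the day 2 males at 75 mg/kg-day had replicate 3 at 7.81, above 6.83 to 6.97. Hsd17b6 in females on day 7 at 1.5 mg/kg-day had replicate 2 at 11.82, below 12.69 to 12.72. Aox3 in females on day 2 at 75 mg/kg-day had replicate 4 at 11.01, below 11.30 to 11.31. Aox3 in the day 2 males at 15 mg/kg-day had replicate 1 at 11.99, below 12.91 to 13.07, and this is the array whose Cyp2b10 also stood apart. The change of Zbtb16 from day 2 to day 7 at the low doses was 1.83 higher in males than in females by a test of the difference itself.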

How the results depend on the processing

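Over sexes and days at 75 mg/kg-day, 5 to 7 of the 10 genes were called lower when 1 array was left out, and Hectd2os, Ang and Hsd17b6 were called under all 59 alternatives. Dose 0 as the comparison, an alternative here and below, uses arrays that had a part in choosing the genes. With 0.15 mg/kg-day alone as the comparison, 348 genes in all were called lower and 511 higher, in place of 665 and 1041. In females on day 7 the count of the 10 was 1 in place of 2 with the mean over probe sets, an intensity trend with robust estimates, array weights, and dose 0.15, 1.5 or 0 as the comparison. With arrays left out in turn it was 1 to 2, and the log2 difference of Serpina4-ps1 there ran from -2.61 to -1.23. In females on day 2 the count was 0 in place of 1 with dose 0 as the comparison and 1 to 2 with arrays left out. In males on day 2 it was 1 in place of 0 without the 2 doubted arrays and 0 to 1 with arrays left out, and in males on day 7 it was 1 in place of 0 with array weights and without the 2 doubted arrays. With dose 0 as the comparison, 1 of the 10, Ribc2, was called lower at 15 mg/kg-day in females on day 2, in place of 0. The difference of Ribc2 at 75 mg/kg-day turned to -0.012 with array weights, -0.060 against 1.5 mg/kg-day, -0.11 against dose 0 and -0.0028 without the 2 doubted arrays, and ran from -0.017 to 0.016 with arrays left out. The causes of these changes were not tested. Quantile normalization called 943 genes lower and 1018 higher. With the replicate number as a block, 667 genes were called lower and 1034 higher and 5 of the 10 were lower. Samples with the same number did not deviate together (mean correlation of deviations 0.0013, lowest -0.29).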
